A study of Mus musculus with 12 samples.

Results

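Dendritic cells (DC) that carry the integrin CD103 were compared between the mesenteric lymph nodes (MLN) of Cre+ mice, in which Tgfbr2 was deleted, and of Cre- control mice. The comparison rests on 6 of the 12 arrays of the study, namely the 3 arrays with MLN and Cre+ in title and genotype and the 3 with MLN and Cre-. All mice were on the C57BL/6 background, the Cre- mice were described as healthy, and the sorted cells went untreated into RNA isolation. The MLN cells were flow-sorted as CD11c+CD103+, and each MLN sample was a pool from 4 mice. Not given in the sources used here were the promoter that drives Cre, the exons of Tgfbr2 that are removed, and the age and sex of the mice. In the MLN Cre+ samples the field for the cell type speaks of Cre- mice, unlike the title, source and genotype fields; title and genotype decided the group. The other 6 arrays hold splenic CD11c+ DC of Cre+ and Cre- mice and serve here for the estimate of the spread and for a test of where the MLN differs. Nothing in the labels says whether the pools share litters or sort days, so p-values measure only the spread between these samples, which may be technical.

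Transforming growth factor beta (TGF-beta) binds the receptor encoded by Tgfbr2, which recruits and activates the receptor encoded by Tgfbr1. The activated complex phosphorylates Smad2 and Smad3, and these enter the nucleus with Smad4, while Smad7 inhibits the pathway. In the gut, CD103+ DC take up antigen in the mucosa, migrate through lymph to the MLN with the help of the chemokine receptor Ccr7, and make retinoic acid with the retinaldehyde dehydrogenase Aldh1a2. Together with TGF-beta, retinoic acid made by these cells favours regulatory T cells.

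RNA was hybridized to Affymetrix Mouse Exon 1.0 ST arrays, and expression is given below as deposited gene-level log2 values, on which 1 unit is a doubling. Each of 23332 probe sets was tested with limma in a fit over all 12 arrays, and a probe set was called at a Benjamini-Hochberg adjusted p under 0.05. Differences are Cre+ minus Cre- on the log2 scale with their standard error (SE) from that fit. Array medians were 6.74 to 6.81 in MLN Cre- and 6.79 to 6.89 in MLN Cre+, and the median difference over all 14860 named genes was 0.07, so that 66.5% of genes had a positive difference before any test. The number of arrays limits the precision. In bulk RNA, more cells of a type and more RNA per cell cannot be told apart.

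In MLN CD103+ DC, 12 named genes were higher and 3 lower in Cre+ than in Cre- mice. The Fc receptor genes Fcgr4 and Fcgr3, the C-type lectin genes Clec4a3 and Clec4a1, the CD11b gene Itgam and the F4/80 gene Adgre1 rose, and so did the interferon-induced genes Cxcl9 and Gbp7. The tight junction gene Cldn1, the phosphatase inhibitor gene Ppp1r1a and the transporter gene Slc6a13 fell. In all, 20 of 23332 probe sets (0.0857%) were called, 17 higher (0.0729%) and 3 lower (0.0129%). Of these, 15 carried 1 gene symbol, with 12 of 14860 genes rising (0.0808%) and 3 falling (0.0202%), 1 carried several symbols and 4 carried none. The smallest called difference was 0.46, and the 3 Cre+ arrays lay wholly above or wholly below the 3 Cre- arrays for all 20 called probe sets, as they did for 13.9% of all genes above and 4.76% below. At an unadjusted p under 0.05 in limma, 10.6% of all genes were higher and 1.6% lower. Counts of list members at that p are to be read beside these shares.

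The number of calls rested on the arrays in the fit and on the scaling. With the 6 MLN arrays alone, 0 probe sets were called in limma and the lowest adjusted p was 0.0705, so that "rose" and "fell" hold below for the fit of all 12 arrays. When an MLN Cre- array was left out it was 2 (replicate 1), 0 (replicate 2) or 42 (replicate 3), and when an MLN Cre+ array was left out it was 0 (replicate 1), 0 (replicate 2) or 1 (replicate 3). Leaving out a splenic array gave 11 (Cre- replicate 2), 13 (Cre- replicate 3) or 9 (Cre+ replicate 2), and counts nearer to 20 for the other 3. In the 3 fits with 0 calls after an MLN array was left out, limma gave 1627, 2986 and 2651 probe sets an unadjusted p under 0.05, and with the MLN arrays alone 2476, beside 2783 in the fit of all arrays. As deposited, 85% of calls were rises. After quantile normalization over all arrays 53 probe sets were called, 39 higher and 14 lower (73.6% rises), and after quantile normalization within each tissue 6 were called, 2 higher and 4 lower (33.3% rises). All 15 called genes kept their direction under each of the 21 alternative settings, but only a change of scaling could have reversed it. Leaving out or weighting arrays cannot, because the groups of each called gene do not overlap. The other settings keep the MLN means. Whether a gene stayed called varied more. Of the 21 settings, the call was lost in 6 for Cldn1, the fewest, in 13 for Adgre1 and Gbp7, and in 16 for Tm6sf1, the most. List medians given below also moved with the scaling. After quantile normalization over all arrays, 10 of 37 lists had a negative median in place of a positive one, and of 21 with a positive median in both, 12 had a median over 1.5 times lower.

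**Figure D1:**
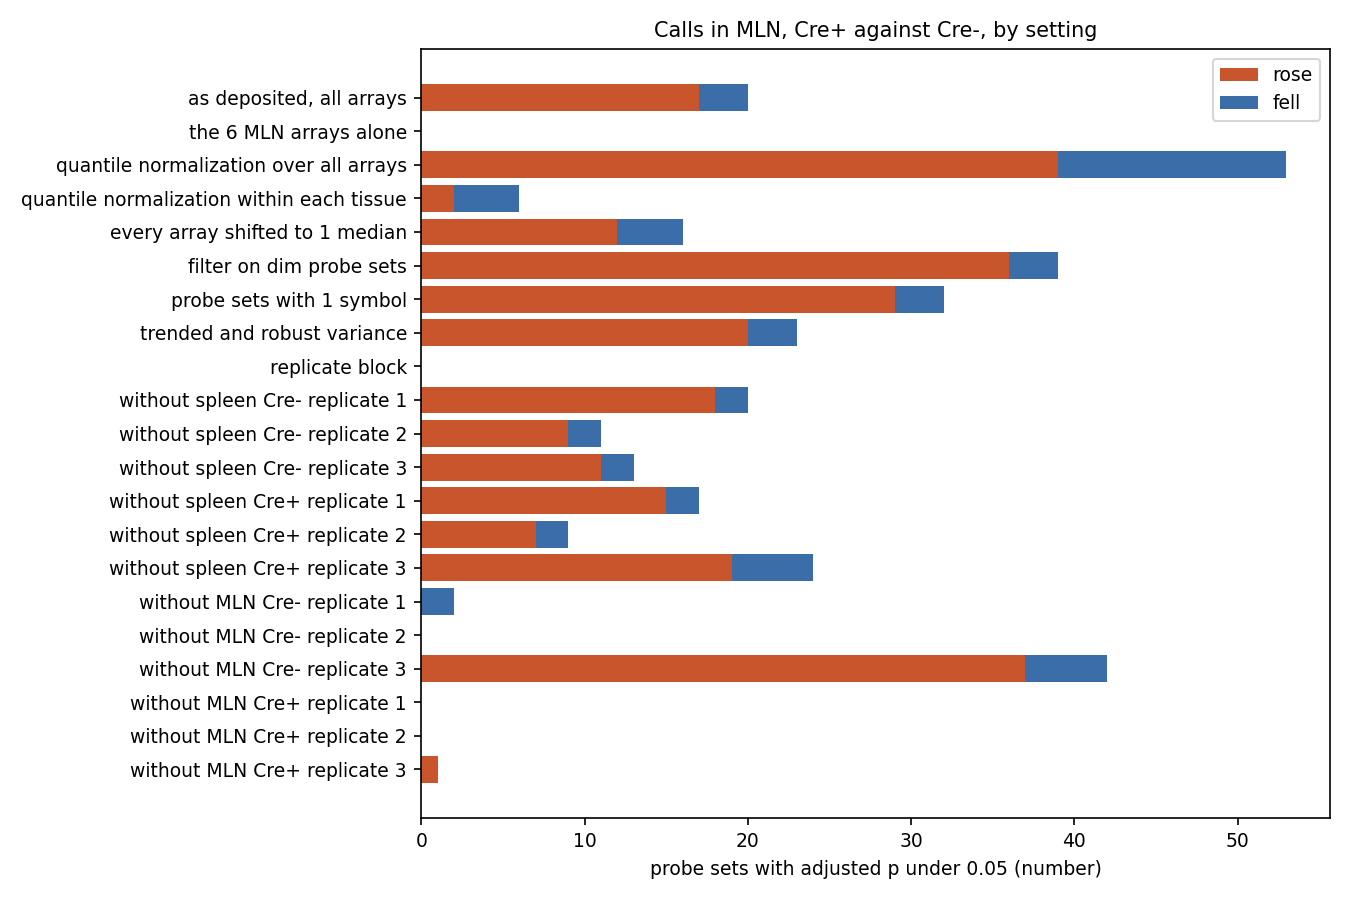
Number of probe sets called in MLN, Cre+ against Cre- (horizontal axis), as deposited and under 20 of the 21 alternative settings (vertical axis), with rises in orange and falls in blue. The bars run from 0 to 53 calls, and the setting with array weights, which gave 966 calls, is not drawn.

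Tgfbr2 itself measured 9.55, 9.67 and 9.53 on the Cre- arrays and 9.51, 9.37 and 9.51 on the Cre+ arrays. All 3 Cre+ values were below the lowest Cre- value. The difference was -0.12 (SE 0.075, adjusted p = 0.524 in limma), and an exact two-sided permutation test over the 6 arrays gave p = 0.1, the smallest that 3 against 3 can give. A gene-level value also covers probes outside the removed exons, so it does not measure the deletion. The gene of CD103, Itgae, on which the cells were sorted, measured 7.90, 7.90 and 8.20 in Cre- and 7.55, 7.74 and 7.97 in Cre+ mice. These ranges overlapped, with a difference of -0.24 (SE 0.202, adjusted p = 0.625). The gene of CD11c, Itgax, had no probe set with a single symbol and is not named here.

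The promoters of Fcgr4, Gbp7, Itgam and Cldn1 are printed because these genes were called and differ in the short motifs their promoters hold. They come from RefSeq on GRCm38.p6 and cover 250 bases before and 50 bases after the start of transcription, 5′ to 3′ on the gene's strand. Capitals mark matches on either strand to the gamma-interferon-activated site TTCNNNGAA, the interferon-stimulated response element core GAAANNGAAA, and the core GAGGAA bound by PU.1, a transcription factor of myeloid cells. The longer form GAGGAAGT, in Fcgr4, overlaps this core. Near the end of the Gbp7 window 1 match to the core, and all matches to the other motifs named below, are left in lower case.
Fcgr4: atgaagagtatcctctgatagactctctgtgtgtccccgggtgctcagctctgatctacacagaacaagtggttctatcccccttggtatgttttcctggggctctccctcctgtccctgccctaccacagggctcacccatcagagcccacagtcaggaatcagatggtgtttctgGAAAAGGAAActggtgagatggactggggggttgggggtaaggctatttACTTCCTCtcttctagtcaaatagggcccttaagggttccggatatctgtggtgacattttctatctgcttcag
Gbp7: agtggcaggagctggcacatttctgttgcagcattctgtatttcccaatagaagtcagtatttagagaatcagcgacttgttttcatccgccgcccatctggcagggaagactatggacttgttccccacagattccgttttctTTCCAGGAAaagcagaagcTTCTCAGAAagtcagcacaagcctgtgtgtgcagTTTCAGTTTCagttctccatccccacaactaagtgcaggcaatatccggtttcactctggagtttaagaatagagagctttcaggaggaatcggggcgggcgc
Itgam: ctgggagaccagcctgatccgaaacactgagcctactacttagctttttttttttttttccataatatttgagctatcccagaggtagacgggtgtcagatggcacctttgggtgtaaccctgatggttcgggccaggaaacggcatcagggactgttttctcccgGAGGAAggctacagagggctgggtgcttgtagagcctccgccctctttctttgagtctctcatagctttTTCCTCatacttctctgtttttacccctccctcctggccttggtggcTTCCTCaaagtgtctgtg
Cldn1: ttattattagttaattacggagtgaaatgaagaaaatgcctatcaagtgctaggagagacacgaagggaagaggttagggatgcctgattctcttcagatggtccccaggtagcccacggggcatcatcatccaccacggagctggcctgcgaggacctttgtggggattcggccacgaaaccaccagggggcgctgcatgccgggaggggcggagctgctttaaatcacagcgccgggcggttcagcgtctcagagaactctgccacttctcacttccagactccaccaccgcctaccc
The Fcgr4 promoter lies at chr1:171018676-171018975 on the plus strand, that of Gbp7 at chr3:142530086-142530385 on the plus strand, that of Itgam at chr7:128062390-128062689 on the plus strand and that of Cldn1 at chr16:26371790-26372089 on the minus strand. RefSeq promoters were found for 11 of the 15 called genes, with 15 windows. The GAGGAA core was present in 8 of these 15 windows, from 7 genes that rose, and in 28.3% of the 32851 windows of the table. GAAANNGAAA was present for Fcgr4, Gbp7 and Tgfbi (3.44% of all windows), TTCNNNGAA for Gbp7 (8.3%) and GAGGAAGT for Cd300ld and Fcgr4 (3.2%). Of the other motifs searched on both strands, the Smad-type CAGACA was present for Cd300ld, Itgam and Slc6a13 (21%), the kappa B-type GGGNNTTTCC for Fcgr3 and Slc6a13 (1.63%), and the Smad palindrome GTCTAGAC for none (0.213%). The Cldn1 window held 0 of the 7 motifs. Motifs and promoters were chosen after the values were seen, and a match describes letters, not a bound site.

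Activating Fc receptors bind antibody-coated particles and signal through the common gamma chain encoded by Fcer1g. Of 19 genes of Fc receptors and their adaptors and relatives, 3 rose and 16 were not called, against 0.0808% rises over all genes, and their median difference was 0.32 beside 0.07 for all genes. This list and those below were chosen with earlier results of these data known. A share of calls above that of all genes therefore describes a list and is no test of it. Fcgr4, which encodes an activating receptor for IgG, measured 5.88, 6.41 and 6.50 in Cre- and 8.45, 8.25 and 7.57 in Cre+ mice. Every Cre+ array was at least 1 unit above the highest Cre- array. The rise was 3.55-fold (95% interval 2.49 to 5.07, adjusted p = 0.0253). Fcgr3, another activating IgG receptor gene, measured 6.61, 6.64 and 6.76 in Cre- and 7.33, 7.19 and 7.24 in Cre+ mice, tight within each group, and rose 1.49-fold (95% interval 1.33 to 1.68, adjusted p = 0.0321). Cd300ld, a gene of the CD300 family of myeloid immunoglobulin-type receptors, measured 6.59, 6.59 and 6.93 against 7.91, 7.65 and 8.20 and rose 2.32-fold (95% interval 1.79 to 3.02, adjusted p = 0.0332). Fcer1g measured 10.32, 10.30 and 10.59 in Cre- and 10.98, 10.85 and 10.75 in Cre+ mice. The groups did not overlap, but its difference of 0.45 (SE 0.105, adjusted p = 0.187) was not called. Likewise not called was Cd300lb, at 0.60 (SE 0.153, adjusted p = 0.233).

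The C-type lectin receptors include the Clec4a family, whose genes lie side by side on chromosome 6 and encode receptors of DC and other myeloid cells. Of 26 lectin genes 2 rose and 24 were not called, against 0.0808% rises over all genes, with a median difference of 0.11. In 9 of the 26 (34.6%) all Cre+ arrays lay above all Cre- arrays, beside 13.9% of all genes. Clec4a3 measured 7.003, 6.61 and 7.15 in Cre- and 9.08, 8.64 and 8.39 in Cre+ mice and rose 3.44-fold (95% interval 2.49 to 4.74, adjusted p = 0.0186). Clec4a1 measured 6.72, 6.80 and 6.80 in Cre- and 7.99, 7.75 and 7.74 in Cre+ mice and rose 2.08-fold (95% interval 1.71 to 2.52, adjusted p = 0.0186). The gap between the groups was wider than the spread within them for both genes. Probe sequences were not used here, so signal shared among related lectin genes, or between Fcgr3 and Fcgr4, was not tested. Among lectins that were not called, Clec4e, a sensor of mycobacterial glycolipid, had a difference of 0.73 (SE 0.169, adjusted p = 0.187) and Clec12a, an inhibitory receptor, one of 0.43 (SE 0.11, adjusted p = 0.237).

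**Figure D2:**
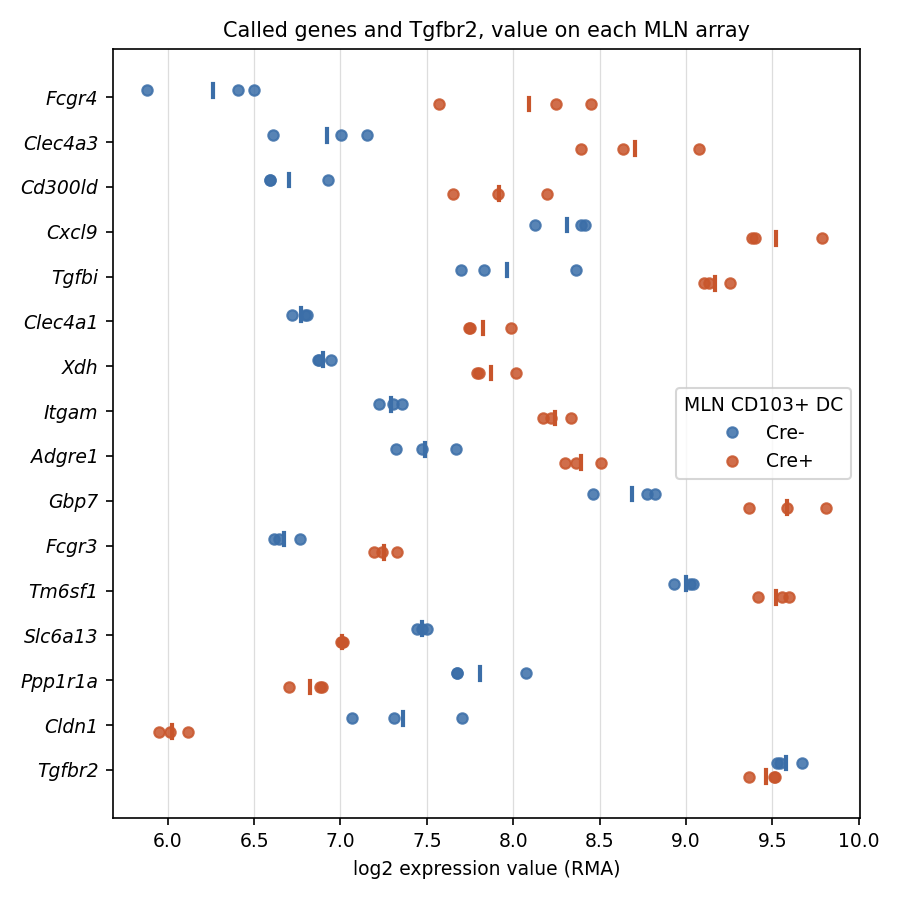
Log2 expression value (horizontal axis) of the 15 called genes and Tgfbr2 on each MLN array, with Cre- arrays in blue, Cre+ arrays in orange and a short bar at each group mean (n = 3). The 3 arrays of a group lie on one side of those of the other group for each of the 15 called genes, and the groups are closest for Tgfbr2.

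Integrins of leukocytes pair an alpha and a beta chain, and CD11b, encoded by Itgam, pairs with the chain encoded by Itgb2. Itgam measured 7.30, 7.22 and 7.36 in Cre- and 8.17, 8.33 and 8.22 in Cre+ mice, and rose 1.93-fold (95% interval 1.62 to 2.29, adjusted p = 0.0186). It was the sole call among 14 integrin genes, against 0.0808% rises over all genes. The median difference of the 14 was 0.19 as deposited and 0.09 after quantile normalization over all arrays. Itgb2 measured 9.98, 9.94 and 10.12 against 10.17, 10.31 and 10.36, without overlap, and was not called (0.26, SE 0.105, adjusted p = 0.391). Itgal, the alpha chain gene of LFA-1, had a difference of 0.36 (SE 0.106, adjusted p = 0.287) and Itgav one of 0.36 (SE 0.134, adjusted p = 0.374).

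Of the macrophage and monocyte genes, Adgre1 and Fcgr4 passed the test. Among 24 macrophage genes Adgre1 rose and 23 were not called, against 0.0808% rises over all genes. Of these 24, 22 had a positive difference, beside 66.5% of all genes, a share that varied with signal. In 14 all Cre+ arrays lay above all Cre- arrays, beside 13.9% of all genes. Adgre1, the gene of the surface marker F4/80, measured 7.32, 7.47 and 7.67 in Cre- and 8.30, 8.51 and 8.37 in Cre+ mice and rose 1.87-fold (95% interval 1.54 to 2.28, adjusted p = 0.0332). Of 15 monocyte genes Fcgr4 rose and 14 were not called, against the same 0.0808% over all genes. All 15 had a positive difference, and the median was 0.50. In 12 of the 15 all Cre+ arrays lay above all Cre- arrays, beside the same 13.9% of all genes. The growth factor receptor gene Csf1r, on which macrophages and many monocytes depend, measured 8.02, 8.55 and 8.75 in Cre- and 9.47, 9.47 and 9.45 in Cre+ mice. Its Cre+ values lay close together and above every Cre- value, and its difference of 1.03 (SE 0.161, adjusted p = 0.0614) was not called. The values of Slc11a1, a metal transporter of the phagosome, were 7.69, 8.09 and 8.42 against 8.86, 8.97 and 9.13 (0.92, SE 0.157, adjusted p = 0.0856). Those of Cd5l, a secreted macrophage protein, were 6.33, 5.97 and 6.46 against 7.40, 7.29 and 7.34 (1.09, SE 0.191, adjusted p = 0.0856). Neither gene overlapped between groups. Spic, a transcription factor gene of iron-recycling macrophages, had a difference of 0.89 (SE 0.171, adjusted p = 0.117) and Mertk, a receptor for dying cells, one of 0.64 (SE 0.127, adjusted p = 0.123).

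Other macrophage genes had smaller differences. Apoe, a lipid transport protein gene, measured 10.87, 10.96 and 11.25 in Cre- and 10.95, 11.02 and 10.99 in Cre+ mice, and Cd68, a lysosomal glycoprotein gene, had a difference of 0.20 (SE 0.142, adjusted p = 0.57). On the log2 scale the summed level of the 24 macrophage genes ranged from 12.30 to 12.71 over the Cre- arrays and from 12.70 to 12.87 over the Cre+ arrays, so the ranges overlapped slightly. For the monocyte list the summed level was 11.19 to 11.44 in Cre- and 11.82 to 12.01 in Cre+ mice, without overlap. The lists are not separate from DC genes, since Csf1r and Cx3cr1 also stand in the list of type 2 conventional DC. Values on these arrays have no zero and no detection call. The part that other myeloid cells in the sort had in the calls of Fcgr4, Fcgr3, Cd300ld, Itgam and Adgre1 was not tested.

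Interferon-induced genes had mostly positive differences, with few calls. Of 16 interferon-gamma-induced genes 2 rose and 14 were not called, against 0.0808% rises over all genes. Their median difference was 0.30 as deposited and 0.16 after quantile normalization over all arrays. Cxcl9, a ligand of the chemokine receptor Cxcr3, measured 8.39, 8.13 and 8.41 in Cre- and 9.38, 9.40 and 9.79 in Cre+ mice. It rose 2.32-fold (95% interval 1.82 to 2.96, adjusted p = 0.0289), with all Cre+ arrays above all Cre- arrays. Gbp7, a guanylate-binding protein gene of cell-autonomous defence, measured 8.82, 8.46 and 8.77 against 9.58, 9.36 and 9.81 and rose 1.86-fold (95% interval 1.54 to 2.26, adjusted p = 0.0332). Cxcl10, another Cxcr3 ligand, measured 8.11, 7.97 and 7.90 against 9.10, 8.50 and 9.05 (0.89, SE 0.193, adjusted p = 0.166) and was not called.

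Type I interferon-induced genes gave 0 calls of 22 in limma, although 17 of the 22 had an unadjusted p under 0.05, all with higher values in Cre+ mice, beside 10.6% of all genes with higher and 1.6% with lower values at that p. The same number, 17, had all Cre+ arrays above all Cre- arrays, beside 13.9% of all genes, and the median difference was 0.41. Oasl2, an antiviral gene of the oligoadenylate synthetase family, measured 8.29, 7.57 and 7.66 in Cre- and 8.81, 8.47 and 8.97 in Cre+ mice (0.91, SE 0.223, adjusted p = 0.214). The regulator Irf7 measured 9.11, 8.60 and 8.58 against 9.55, 9.26 and 9.50 (0.67, SE 0.167, adjusted p = 0.216). For both genes Cre- replicate 1 was the highest control, and every Cre+ array lay above it. Trim30a (0.47, SE 0.118, adjusted p = 0.229) and Ifit2 (0.50, SE 0.123, adjusted p = 0.216) were similar in size. After quantile normalization over all arrays 19 of the 22 genes still had positive differences, with a median of 0.33.

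Among the genes of the TGF-beta pathway itself, none of 23 receptor and Smad genes was called, and 1 had an unadjusted p under 0.05. Their median difference was 0.04, below the 0.07 of all genes, and after quantile normalization over all arrays it was -0.06 with 5 of 23 positive. The partner receptor gene Tgfbr1 measured 8.13, 8.26 and 8.42 in Cre- and 7.94, 8.15 and 8.19 in Cre+ mice (-0.18, SE 0.111, adjusted p = 0.52). The inhibitory Smad7 measured 9.05, 9.17 and 8.94 against 8.81, 8.85 and 8.94 (-0.19, SE 0.111, adjusted p = 0.507). Smad3, a signal transducer, was the one with the smallest p, at 8.08, 8.24 and 8.31 against 8.32, 8.47 and 8.77 (0.31, SE 0.13, adjusted p = 0.402).

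Ligands of the pathway and the proteins that activate them gave 0 calls of 15, and 3 had an unadjusted p under 0.05. The ligand gene Tgfb1, named after its values were seen, measured 9.44, 9.52 and 9.58 in Cre- and 9.50, 9.51 and 9.71 in Cre+ mice, with overlapping ranges (0.06, SE 0.097, adjusted p = 0.811). Thbs1, which encodes thrombospondin, an activator of latent TGF-beta, had a difference of 0.57 (SE 0.244, adjusted p = 0.406). Of 21 genes listed as induced by TGF-beta, Tgfbi rose and 20 were not called, against 0.0808% rises over all genes. Their median was 0.09 as deposited and 0.02 after quantile normalization over all arrays. Tgfbi, a secreted matrix protein gene, measured 7.70, 7.83 and 8.37 in Cre- and 9.25, 9.14 and 9.11 in Cre+ mice. It rose 2.30-fold (95% interval 1.79 to 2.96, adjusted p = 0.0321), with every Cre+ array above every Cre- array. The crosslinking enzyme gene Tgm2 (0.70, SE 0.167, adjusted p = 0.196) and the fibronectin gene Fn1 (0.63, SE 0.215, adjusted p = 0.352) were also above the controls on all arrays, without a call.

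Cldn1 had the most negative difference of the named genes that were called. This tight junction gene measured 7.07, 7.31 and 7.71 in Cre- and 6.01, 5.95 and 6.12 in Cre+ mice, and its level in Cre- mice was 2.52 times that in Cre+ mice (log2 difference -1.34, SE 0.151, adjusted p = 0.0186). The Cre+ values lay close together, below every Cre- value. Of 20 junction genes of epithelial type Cldn1 fell and 19 were not called, against 0.0202% falls over all genes, and the median difference was 0.03. F11r, which encodes the junctional adhesion molecule JAM-A, measured 7.73, 7.91 and 8.43 against 7.39, 7.57 and 7.51 (-0.53, SE 0.205, adjusted p = 0.382). The epithelial list gave 0 calls of 13, with 1 unadjusted p under 0.05, a median of 0.00 and a summed log2 level of 9.89 to 9.90 in Cre- and 9.83 to 9.95 in Cre+ mice. Its adhesion genes Epcam (0.07, SE 0.153, adjusted p = 0.874) and Cdh1 (0.01, SE 0.133, adjusted p = 0.977) overlapped between groups.

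Both other genes that fell encode a regulator and a transporter. Ppp1r1a, an inhibitor of protein phosphatase 1, measured 7.67, 7.67 and 8.07 in Cre- and 6.88, 6.70 and 6.89 in Cre+ mice and fell by 0.98 on the log2 scale (SE 0.117, adjusted p = 0.0186). Slc6a13, a transporter of gamma-aminobutyric acid, measured 7.47, 7.50 and 7.44 against 7.02, 7.01 and 7.002 and fell by 0.46 (SE 0.0657, adjusted p = 0.0332). Both groups of Slc6a13 spanned a narrow range. Among the genes that rose, Xdh, which encodes the purine-degrading xanthine dehydrogenase, measured 6.88, 6.87 and 6.94 in Cre- and 8.01, 7.79 and 7.80 in Cre+ mice and rose 1.96-fold (95% interval 1.62 to 2.38, adjusted p = 0.0253). Tm6sf1 measured 8.93, 9.02 and 9.04 against 9.56, 9.60 and 9.42 and rose 1.44-fold (95% interval 1.28 to 1.62, adjusted p = 0.0332). Neither gene overlapped between groups.

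Large differences were not always called, because the spread differed between genes. Of the 12 most positive differences with non-overlapping groups and an unadjusted p under 0.01, Fcgr4, Clec4a3, Cd300ld, Cxcl9 and Tgfbi were called. Plcb4, a phospholipase gene, measured 6.63, 6.47 and 6.58 in Cre- and 7.47, 7.64 and 7.97 in Cre+ mice (1.14, SE 0.176, adjusted p = 0.0579). Ly6i, of the Ly6 family, measured 7.32, 7.01 and 6.92 against 8.90, 8.13 and 8.39 (1.39, SE 0.307, adjusted p = 0.171). That each Cre+ array was above each Cre- array for both follows from this selection. Of the 12 most negative differences, Cldn1 and Ppp1r1a were called. The heat shock gene Hspa1a measured 9.02, 9.69 and 9.87 in Cre- and 7.78, 8.80 and 8.39 in Cre+ mice (-1.20, SE 0.281, adjusted p = 0.188), and Sod3, the gene of extracellular superoxide dismutase, had a difference of -0.89 (SE 0.226, adjusted p = 0.23).

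**Figure D3:**
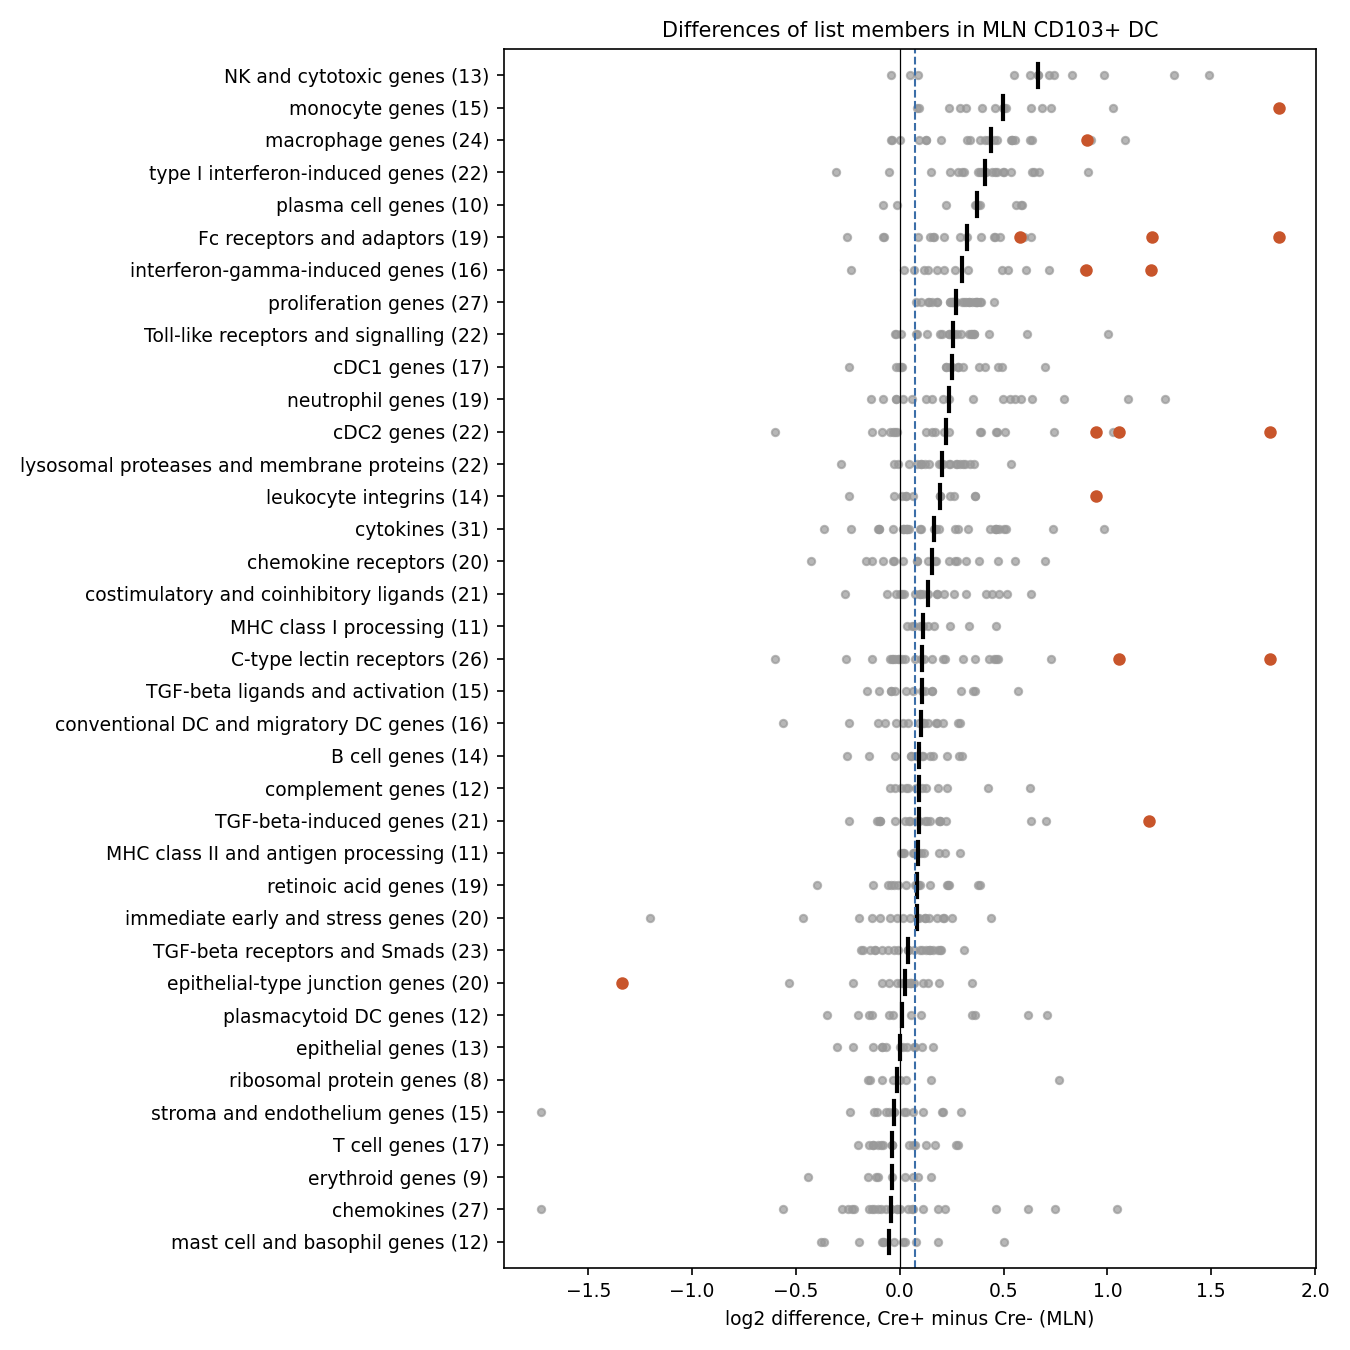
Log2 difference Cre+ minus Cre- in MLN (horizontal axis) of every measured member of 37 gene lists (vertical axis, number measured in parentheses), with called genes in orange, others in grey, a black bar at the list's median and a dashed line at the median of all genes, 0.07. List medians run from -0.05 for mast cell and basophil genes to 0.67 for NK and cytotoxic genes, and called genes stand in 9 of the lists.

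Genes of the tasks that CD103+ DC perform in the MLN gave no calls in limma. Of 19 retinoic acid genes 0 were called and 2 were higher at an unadjusted p under 0.05, beside 10.6% of all genes. Aldh1a2 measured 10.29, 10.41 and 10.83 in Cre- and 10.80, 10.54 and 10.87 in Cre+ mice, with overlapping groups (0.23, SE 0.145, adjusted p = 0.525). The retinoid receptor gene Rxra measured 7.04, 7.16 and 7.24 against 7.48, 7.37 and 7.71 (0.38, SE 0.111, adjusted p = 0.295). All 11 genes of antigen presentation on MHC class II had positive differences as deposited, beside 66.5% of all genes. The median log2 value of the 11 was 10.51, and in the highest signal class 87.1% of probe sets were positive. The median difference of the 11 was 0.09, beside 0.16 in that signal class, and 2 had an unadjusted p under 0.05. Of these 11, 7 were positive after quantile normalization over all arrays, with a median of 0.02. The class II chain gene H2-Aa stood at 12.75, 12.82 and 12.86 in Cre- and 12.91, 12.84 and 12.88 in Cre+ mice (0.07, SE 0.0707, adjusted p = 0.707). For MHC class I processing the median was 0.11 over 11 genes as deposited and 0.02 after that normalization, 2 of which had an unadjusted p under 0.05, and the peptide transporter gene Tap1 had a difference of 0.47 (SE 0.125, adjusted p = 0.253).

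Of 21 costimulatory and coinhibitory ligand genes 0 were called, and 5 had an unadjusted p under 0.05, 4 of them with higher values. Cd274, which encodes the inhibitory ligand PD-L1, measured 10.57, 10.68 and 10.99 in Cre- and 11.18, 11.28 and 11.69 in Cre+ mice (0.63, SE 0.154, adjusted p = 0.212). Cd80, a ligand of CD28, measured 8.26, 8.57 and 8.68 against 8.82, 8.89 and 9.23 (0.48, SE 0.132, adjusted p = 0.271). Both had every Cre+ array above every Cre- array. Cd86 and Cd40, added to the naming after their values were seen, had differences of 0.26 (SE 0.146, adjusted p = 0.484) and 0.18 (SE 0.147, adjusted p = 0.62).

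Cytokine genes gave 0 calls of 31, while 10 had an unadjusted p under 0.05 in limma, all with higher values, beside 10.6% of all genes. Ifng, the gene of interferon-gamma, measured 7.71, 7.20 and 7.02 in Cre- and 8.47, 8.09 and 8.33 in Cre+ mice (0.98, SE 0.253, adjusted p = 0.235). Il10, an anti-inflammatory cytokine gene, measured 6.26, 6.53 and 5.75 against 7.38, 6.76 and 6.62 (0.74, SE 0.213, adjusted p = 0.286). Il12b, which encodes a subunit of interleukins 12 and 23 and was named after its values were seen, overlapped between groups (0.28, SE 0.203, adjusted p = 0.577). The groups of Ifng and Il10 did not overlap.

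The chemokine list does not hold the called Cxcl9, which was counted above with the interferon-gamma-induced genes. Its 27 genes gave 0 calls with a median of -0.04, and 5 had an unadjusted p under 0.05. Ccl3, an inflammatory chemokine gene, measured 10.80, 10.85 and 9.91 in Cre- and 11.83, 11.27 and 11.60 in Cre+ mice (1.05, SE 0.22, adjusted p = 0.146). Cxcl13, the B cell chemokine of follicles, spread widely, at 9.94, 9.28 and 11.07 against 6.74, 9.08 and 9.29 (-1.73, SE 0.746, adjusted p = 0.407). Its groups overlapped and its SE was well above the median SE of all probe sets, 0.131. Among 20 chemokine receptor genes 0 were called and 4 had an unadjusted p under 0.05, and Cxcr3 measured 8.28, 7.96 and 8.23 against 8.88, 8.94 and 8.75 (0.70, SE 0.187, adjusted p = 0.253).

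Toll-like receptor and signalling genes gave 0 calls of 22, with 8 higher at an unadjusted p under 0.05 in limma, beside 10.6% of all genes. Their median of 0.26 became 0.11 after quantile normalization over all arrays. The endosomal RNA sensor gene Tlr8 measured 5.03, 5.40 and 5.46 in Cre- and 6.44, 6.15 and 6.31 in Cre+ mice (1.00, SE 0.168, adjusted p = 0.0816), and Tlr7 measured 8.77, 8.60 and 8.60 against 9.25, 9.01 and 9.56 (0.61, SE 0.137, adjusted p = 0.177). Neither overlapped between groups. Lysosomal genes gave 0 calls of 22, and 8 were higher at an unadjusted p under 0.05, beside the same 10.6%. Their median of 0.20 became 0.07 after that normalization. The growth factor gene Grn, whose product is processed in lysosomes, had a difference of 0.36 (SE 0.0804, adjusted p = 0.179).

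Proliferation genes had positive differences in 27 of 27 members, beside 66.5% of all genes and 87.1% in the highest signal class. The 27 gave 0 calls and had a median of 0.27. At an unadjusted p under 0.05 in limma 12 were higher, beside 10.6% of all genes. The kinesin gene Kif11 measured 7.62, 7.90 and 8.06 in Cre- and 8.15, 8.34 and 8.46 in Cre+ mice (0.45, SE 0.123, adjusted p = 0.253), and the replication licensing gene Mcm6 had a difference of 0.32 (SE 0.109, adjusted p = 0.352). In 6 of the 27 (22.2%) all Cre+ arrays lay above all Cre- arrays, beside 13.9% of all genes. The number positive was 26 after quantile normalization over all arrays, with a median of 0.18. Complement genes gave 0 calls of 12 and 1 unadjusted p under 0.05, that of C1qb (0.63, SE 0.177, adjusted p = 0.278). Immediate early and stress genes gave 0 calls of 20 and 5 unadjusted p under 0.05, and ribosomal protein genes 0 calls of 8 and 1 unadjusted p under 0.05, with a median of -0.01.

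The labelled identity of the cells was examined with DC genes. Values of different probe sets cannot be ranked against each other, so they describe each gene only across arrays. Ccr7, the receptor for lymph node homing, measured 12.78, 12.91 and 13.05 in Cre- and 12.92, 12.86 and 13.01 in Cre+ mice, and Fscn1, an actin bundler of mature DC, had values from 12.57 to 13.06 over the 6 arrays. Both overlapped between groups. The growth factor receptor gene Flt3, named after its values were seen, measured 9.99, 10.08 and 10.67 against 10.22, 10.18 and 10.61, and the conventional DC factor Zbtb46 measured 7.40, 7.34 and 7.86 against 7.65, 7.81 and 7.999. None of 16 conventional and migratory DC genes was called and 0 had an unadjusted p under 0.05, with a median of 0.10 as deposited and -0.04 after quantile normalization over all arrays. The chemokine gene Ccl17 had a difference of -0.56 (SE 0.276, adjusted p = 0.442).

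CD103+ DC of the MLN comprise a CD11b-negative type 1 subset and a CD11b-positive type 2 subset. For the type 1 list 0 of 17 genes were called and 5 had an unadjusted p under 0.05, with a median of 0.25 as deposited and, after quantile normalization over all arrays, 0.10. Its factor Irf8 measured 10.60, 10.79 and 10.88 in Cre- and 11.06, 10.98 and 11.12 in Cre+ mice (0.30, SE 0.088, adjusted p = 0.287). Clec9a, a receptor for dead cells, and Xcr1, a chemokine receptor, both named after their values were seen, overlapped between groups, Clec9a at 8.95, 9.28 and 9.63 against 8.94, 9.12 and 9.77 and Xcr1 with a difference of 0.38 (SE 0.225, adjusted p = 0.501). For the type 2 list 3 of 22 genes rose and 19 were not called, against 0.0808% rises over all genes. The 3 were Itgam, Clec4a1 and Clec4a3, the same calls that are counted above for the integrin and lectin lists. The median of the type 2 list was 0.22, or 0.13 after that normalization. Sirpa, a surface gene of the subset, measured 9.34, 9.55 and 9.82 against 10.03, 10.08 and 10.13, without overlap (0.51, SE 0.122, adjusted p = 0.2). Irf4, a factor on which the subset depends, measured 9.35, 9.60 and 9.29 against 9.53, 9.36 and 9.31 (-0.01, SE 0.0993, adjusted p = 0.966). Tmem176a and Tmem176b of the same list had differences of -0.05 and -0.09. Members of the type 2 list thus differed among themselves, and the share of each subset in the sort was not measured.

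**Figure D4:**
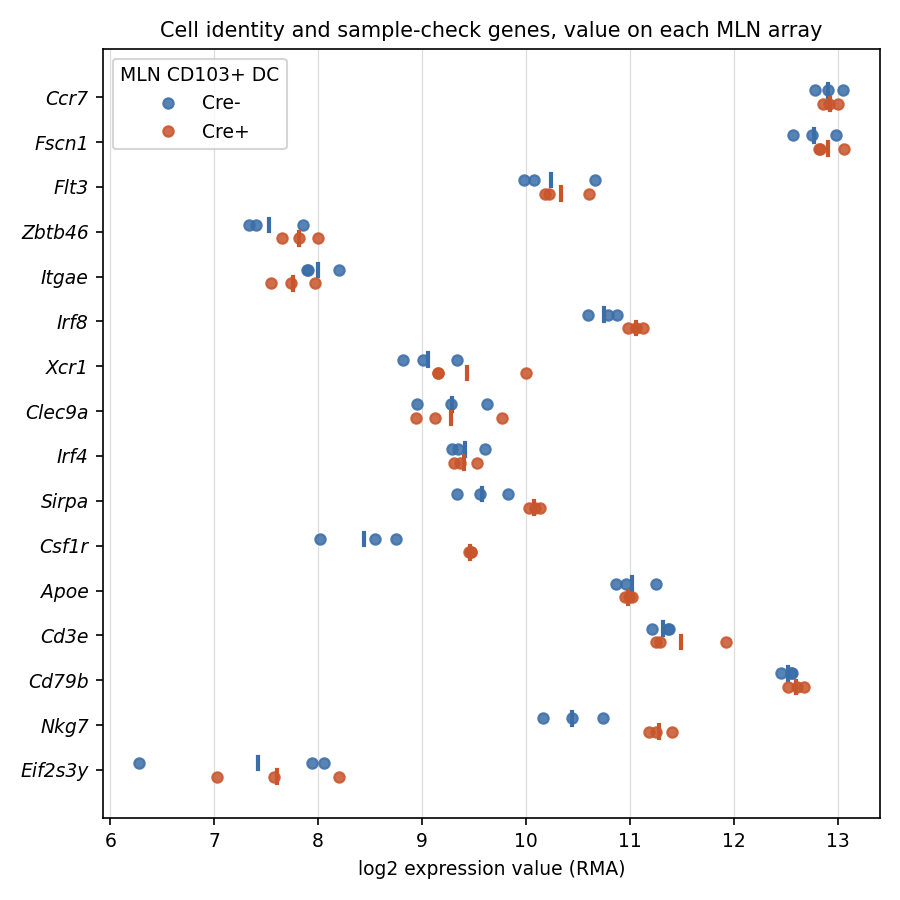
Log2 expression value (horizontal axis) of 16 cell identity and sample-check genes on each MLN array, with Cre- arrays in blue, Cre+ arrays in orange and a short bar at each group mean (n = 3). Csf1r, Sirpa, Irf8 and Nkg7 lie higher on all Cre+ arrays than on all Cre- arrays, whereas the other 12 genes overlap between the groups.

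Genes of lymphocytes were examined as markers of other cells that the sort could hold. The T cell receptor complex gene Cd3e measured 11.37, 11.21 and 11.38 in Cre- and 11.29, 11.25 and 11.93 in Cre+ mice, and the B cell receptor gene Cd79b had values from 12.45 to 12.68 over all 6 arrays. Both overlapped between groups. Over 17 T cell genes 0 were called, 0 had an unadjusted p under 0.05 and the median was -0.04. Their summed log2 level was 14.06 to 14.17 in Cre- and 14.02 to 14.37 in Cre+ mice. Over 14 B cell genes 0 were called, 1 had an unadjusted p under 0.05, that of Cd22 (0.29, SE 0.116, adjusted p = 0.394), and the summed log2 level was 14.44 to 14.57 against 14.56 to 14.67. What part lymphocyte RNA had in the values was not tested.

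Genes of natural killer (NK) and cytotoxic cells had the highest list median, 0.67 over 13 genes, with 0 calls. At an unadjusted p under 0.05 in limma 8 were higher, beside 10.6% of all genes. The transcription factor gene Tbx21 measured 7.86, 7.68 and 7.95 in Cre- and 8.32, 8.71 and 8.68 in Cre+ mice (0.74, SE 0.129, adjusted p = 0.0856). Nkg7, a granule membrane gene, measured 10.74, 10.16 and 10.44 against 11.40, 11.25 and 11.19 (0.83, SE 0.253, adjusted p = 0.312), and the pore-forming Prf1 measured 7.21, 7.08 and 7.11 against 7.84, 7.76 and 7.79 (0.67, SE 0.198, adjusted p = 0.301). In 9 of the 13 genes (69.2%), these 3 among them, all Cre+ arrays lay above all Cre- arrays, beside 13.9% of all genes. Ccl5 and Klrd1 of the same list overlapped, with differences of -0.04 and 0.09. The summed log2 level of the list was 12.93 to 13.17 in Cre- and 13.31 to 13.41 in Cre+ mice. Tbx21 also stands in the type 2 DC list and Ifng in the cytokine list, and the part of NK or other cytotoxic cells in these values was not tested.

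Neutrophil genes gave 0 calls of 19 and 6 unadjusted p under 0.05, all higher, beside 10.6% of all genes. In 11 of the 19 (57.9%) all Cre+ arrays lay above all Cre- arrays, beside 13.9% of all genes. The list had a median of 0.24 and a summed log2 level of 10.52 to 10.61 in Cre- and 10.88 to 11.08 in Cre+ mice. The granule gene Ngp measured 5.09, 5.44 and 5.02 against 6.02, 6.42 and 6.41 (1.10, SE 0.215, adjusted p = 0.121). Plasma cell genes gave 0 calls of 10 and 4 unadjusted p under 0.05, with a median of 0.37, and Xbp1, a factor of secretory cells, measured 9.73, 9.77 and 10.11 against 10.10, 10.55 and 10.63 (0.56, SE 0.15, adjusted p = 0.253). Plasmacytoid DC genes gave 0 calls of 12 and 4 unadjusted p under 0.05, with a median of 0.01, and Lag3 of that list measured 7.80, 7.68 and 7.71 against 8.43, 8.30 and 8.59 (0.71, SE 0.119, adjusted p = 0.081). Erythroid genes (0 calls of 9, 1 unadjusted p under 0.05), mast cell and basophil genes (0 of 12, 3 unadjusted) and stromal and endothelial genes (0 of 15, 2 unadjusted) had medians from -0.05 to -0.03.

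The Y-linked genes gave a check of the pools. Eif2s3y measured 6.27, 7.94 and 8.06 on the MLN Cre- arrays and 7.58, 7.03 and 8.20 on the MLN Cre+ arrays, and the groups overlapped (0.18, SE 0.421, exact two-sided permutation p = 0.8). Kdm5d gave a difference of -0.04 (SE 0.327, exact two-sided permutation p = 0.9). In spleen Eif2s3y was 9.91 on average in Cre- and 3.17 in Cre+ mice, so sex and genotype cannot be told apart there. Among the MLN arrays the lowest value was that of Cre- replicate 1.

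Where the MLN difference was set against that in spleen, 38 of 23332 probe sets (0.163%) differed between tissues in limma, 32 with the higher difference in MLN. This count fell to 12 when spleen Cre- replicate 1 was left out, to 11 for spleen Cre- replicate 2, to 7 and 6 for MLN Cre- replicates 1 and 2, and to 7, 5 and 5 for MLN Cre+ replicates 1, 2 and 3. Of the 15 genes called in MLN, Adgre1 and Ppp1r1a differed between tissues. Adgre1 had a difference of 0.90 in MLN and -0.34 in spleen (difference of differences 1.24, SE 0.182, adjusted p = 0.0352). Ppp1r1a had -0.98 in MLN and 0.09 in spleen (-1.07, SE 0.166, adjusted p = 0.044). Fcgr4, Fcgr3, Cxcl9 and Gbp7 were also called in spleen, where 507 probe sets (2.17%) passed the threshold. Their spleen differences were 1.25, 0.38, 1.38 and 0.77, and their MLN differences 1.83, 0.58, 1.21 and 0.90. For Clec4a3 the values were 1.78 in MLN and 0.28 in spleen (adjusted p = 0.0915 for the difference between tissues), for Tgfbi 1.20 and 0.11 (1.09, SE 0.232, adjusted p = 0.112), and for Cldn1 -1.34 and -0.32 (-1.02, SE 0.214, adjusted p = 0.105). These last differences did not pass the threshold. Whether the arrays of both tissues were normalized in 1 run is not given in the sources used here, and the values of splenic arrays spread more widely. Spleen values also carry the sex difference and another sort, which cannot be told apart from tissue.

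**Figure D5:**
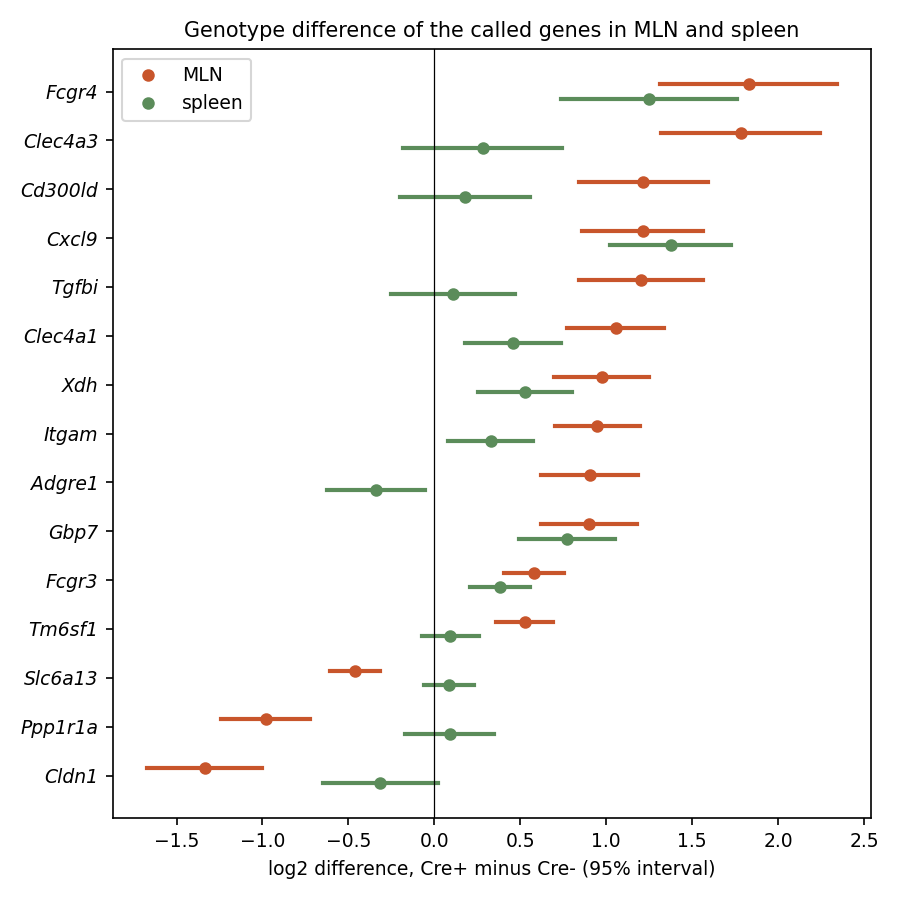
Log2 difference Cre+ minus Cre- (horizontal axis) with its 95% interval from limma for the 15 genes called in MLN, in MLN (orange) and in spleen (green), n = 3 arrays in each group. The intervals of Fcgr4, Cxcl9 and Gbp7, among others, lie above 0 in both tissues, while the MLN and spleen values of Adgre1 lie on opposite sides of 0.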

How the data were processed

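The data were gene-level log2 expression values of Affymetrix Mouse Exon 1.0 ST arrays, made by the authors by robust multi-array averaging in GeneSpring, per the labels. Not given in the sources used here were the software version and the probe annotation. That the deposited values are log2 was read from their range. Splenic and MLN arrays have different value distributions (SD over probe sets 2.37 to 2.42 and 1.80 to 1.91), and whether they were normalized together is not given, so levels are not compared between tissues.

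The values were fitted as deposited with limma 3.58.1 (R 4.3.3), with 4 group means over 12 arrays, 3 in each group, and the contrasts Cre+ minus Cre- in MLN, the same in spleen, and the difference between both. The fit had 8 residual and 2.66 prior degrees of freedom. All tests were two-sided, p-values were adjusted by the Benjamini-Hochberg method over 23332 probe sets, and the threshold was 0.05. Exact permutation tests were used for Tgfbr2, Itgae and the Y-linked genes. The steps were tested on simulated data.

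The platform annotation gave the gene names: 14996 probe sets had 1 symbol (14860 genes), 1019 several and 7317 none, and the latter kinds were not named. The genes of 14941 were found in RefSeq on GRCm38.p6. Where a gene had several probe sets, that with the highest MLN mean stood for it in a list. Members and gene lists were chosen with earlier results of these data known. Named were Tgfbr2, called genes, the 12 most positive and 12 most negative differences with an unadjusted p under 0.01 and non-overlapping groups, the 5 list members of smallest p, and the 4 highest members of each cell type list. Genes outside this rule are marked. Alternatives were the MLN arrays alone, 2 quantile normalizations, a shift of medians, a filter for brighter probe sets, single-symbol probe sets alone, a trended robust variance, array weights, a replicate block and leaving out each array.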

Additional observations from a re-analysis of the deposited data

Results flagged for a closer look

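For 7 of the named genes the Cre+ minus Cre- difference in MLN differed from that in spleen by limma's test of the difference itself, with adjustment over all probe sets. In spleen, sex and genotype cannot be told apart, and the sort differed from that in MLN.

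Adgre1, the F4/80 gene, had a log2 difference of 0.90 in MLN and -0.34 in spleen, so that the MLN difference was larger by 1.24 (SE 0.182, adjusted p = 0.0352). The receptors for dying cells Mertk and Axl had the same pattern without being called in MLN. Mertk had 0.64 in MLN and -0.79 in spleen (1.43, SE 0.18, adjusted p = 0.0221), and Axl had 0.53 and -0.78 (1.31, SE 0.21, adjusted p = 0.0452). For these 3 genes all MLN Cre+ arrays lay above all MLN Cre- arrays. The cytokine gene Il1a had 0.43 in MLN and -0.70 in spleen (1.13, SE 0.165, adjusted p = 0.0352). Ppp1r1a had -0.98 in MLN and 0.09 in spleen (-1.07, SE 0.166, adjusted p = 0.044). The Y-linked Eif2s3y (6.91, SE 0.595, adjusted p = 0.00256) and Kdm5d (3.88, SE 0.462, adjusted p = 0.0186) differed through spleen, where their differences were -6.73 and -3.92, beside 0.18 and -0.04 in MLN. Groups of 3 arrays were not examined for single outlying arrays.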

How the results depend on the processing

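The count of 20 calls (17 higher, 3 lower) was 0 with the 6 MLN arrays alone (2476 probe sets with an unadjusted p under 0.05 in limma). Quantile normalization over all arrays gave 53 (39 higher, 14 lower), quantile normalization within each tissue 6 (2 higher), the filter on dim probe sets, which tested 15737, 39 (36 higher), probe sets with 1 symbol 32 (29 higher), and array weights 966 (865 higher, 101 lower). Of the 20 probe sets, 19 were also called after quantile normalization over all arrays, 5 after that within each tissue and 20 with array weights. The filter kept 18 of the 20 and the restriction to 1 symbol 15, and all of those kept were called. Leaving out single arrays gave 0 to 42 calls, 0 to 37 higher and 0 to 5 lower. The count of 38 differences between tissues was 74 with the filter, 68 with 1 symbol and 1007 with array weights, and 5 to 55 when single arrays were left out. The median difference of all probe sets was 0.08 as deposited, -0.01 after either quantile normalization and 0.01 after the median shift. Tgfbr2 kept its sign, which only a change of scaling could have reversed, and was not called in any of the 21 alternatives. Of 217 named genes that were not called, 73 were called in at least 1 alternative. Array weights ranged from 0.405 to 2.75 over the MLN arrays. The cause of these moves was not tested, beyond the fewer probe sets or arrays in some fits.

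With the replicate number as a block, 0 probe sets were called in MLN (lowest adjusted p = 0.144 in limma) and 0 between tissues, while 3694 had an unadjusted p under 0.05 in MLN. Same-numbered MLN arrays correlated at 0.20, 0.00 and 0.31 in their deviations from the group means, and arrays of unlike number at -0.294 to 0.139. Whether the numbers mark pairs or a shared batch is not given in the labels and was not tested. Replicates 1 and 3 of either group correlated best with their own number, and replicate 2 did not.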

Other observations

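Genes of chemosensory receptors, a group chosen after its values were seen, had mostly negative differences in MLN. Of 718 olfactory receptor genes 579 had a lower mean in Cre+ than in Cre- mice, with a median difference of -0.16 and 0 calls in limma. In 92 of them all Cre+ arrays lay below all Cre- arrays, beside 4.76% of all genes, and in 11 above, beside 13.9% of all genes. Vomeronasal receptor genes (64 of 82 negative, median -0.17) and taste receptor genes (25 of 31 negative, median -0.21) had values of the same sign. After quantile normalization over all arrays 623 of the 718 olfactory receptor genes were negative, with a median of -0.23. Olfr15 was among the 12 most negative differences, at 6.43, 6.68 and 6.80 in Cre- and 5.52, 5.55 and 5.35 in Cre+ mice (-1.16, SE 0.229, adjusted p = 0.121), and so were 4 further olfactory receptor genes and the taste receptor gene Tas2r121.

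The sign of the difference followed the signal across all probe sets as deposited. Positive differences made up 49.7%, 52.6%, 77.3% and 87.1% of probe sets in 4 classes of equal size, from lowest to highest mean log2 value, with medians of 0.00, 0.01, 0.12 and 0.16. After quantile normalization over all arrays the shares were 41.3%, 42.4%, 50.6% and 52.6%.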
